A study of Mus musculus with 13 samples.

Results

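The nuclear-encoded genes of oxidative phosphorylation were followed across blood stem cells that differ in the lineages they rebuild. They were chosen from the count table by symbol alone: Nduf names with a, b, c, s or v and a number for complex I, Sdha to Sdhd for complex II, Uqcr names for complex III, Cox4 to Cox8 names for complex IV and Atp5 names for complex V, leaving out pseudogene names that end in -ps. The rule found 84 of the 24015 gene symbols: 37 for complex I, 4 for complex II, 8 for complex III, 18 for complex IV and 17 for complex V. The rule uses no measured value, though the set was chosen with earlier results of these data known. A symbol is not always a subunit: Atp5sl is known as an assembly factor of complex I, and Ndufa4, named for complex I, is now counted with complex IV.

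The cells were haematopoietic stem cells (HSCs) of C57BL/6 mice, sorted as LSKFlt3-CD150+CD48-CD45.2+Gata1- from the marrow of recipients 16 weeks after each had received a single Vwf+ HSC, so all groups descend from HSCs that expressed Vwf. PLT-HSC (3 libraries) came from recipients with P-restricted reconstitution, PEM-HSC (6 libraries) from PEM-restricted ones and MUL-HSC (4 libraries) from multilineage ones. Each library held polyadenylated RNA of 100 cells, amplified with Smart-seq+. The age of the animals was not given in the sources used here, nor whether libraries of a group came from different recipients, so p-values describe the spread between these libraries, part of which may be technical.

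In oxidative phosphorylation, complexes I and II pass electrons from NADH and succinate to ubiquinone, complex III hands them to cytochrome c and complex IV to oxygen. Complexes I, III and IV pump protons across the inner mitochondrial membrane, and complex V, the ATP synthase, uses the returning protons to make ATP. A small set of core subunits is encoded by mitochondrial DNA, while the other subunits are encoded in the nucleus and imported. None of the 13 mitochondrially encoded genes looked for by symbol was in the count table, so they were not analysed here. HSCs at rest are known for low mitochondrial activity and a reliance on glycolysis, and they raise oxidative phosphorylation when they divide and differentiate.

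Transcription of these genes is known to use shared factors, among them NRF1, GABPA, YY1 and, with its PGC-1 coactivators, ERR alpha. RefSeq promoter windows of build GRCm38.p6, from 250 bases before to 50 bases after the start, were at hand for 69 of the 84 genes, 75 windows in all. The palindromic NRF1 core GCGCATGCGC, searched on both strands, lay in 5 of the 75 windows (6.67%), against 0.971% of 32851 windows of all genes. The YY1 core AAGATGGCG lay in 9 windows (12%), against 1.40% of all windows, the GABP/ETS core CCGGAAGT in 5 (6.67%), against 3.89%, and the ERR element TCAAGGTCA in 2 (2.67%), against 0.423%. A match is only a description of the letters, and these letters missing from a window says nothing about the factor. The 5 genes with the NRF1 core were Atp5g2, Atp5k, Cox6a1, Ndufa11 and Uqcrc1. In Uqcrc1 the core lay 30 bases after the start. For the other 4, 80 bases are shown so that the core, in capitals, can be seen in its surroundings.
Atp5g2: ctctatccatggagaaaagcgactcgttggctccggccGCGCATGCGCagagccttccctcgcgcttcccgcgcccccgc
Atp5k: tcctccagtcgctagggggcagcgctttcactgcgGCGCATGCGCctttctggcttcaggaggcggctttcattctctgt
Cox6a1: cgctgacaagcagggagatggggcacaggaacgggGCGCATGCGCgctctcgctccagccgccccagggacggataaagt
Ndufa11: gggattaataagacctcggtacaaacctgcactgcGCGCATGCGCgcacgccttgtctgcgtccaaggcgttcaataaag
These stretches read 5′ to 3′ in the gene's direction. They are chr15:102671048-102671127 on the minus strand for Atp5g2, chr5:108434405-108434484 on the minus strand for Atp5k, chr5:115349076-115349155 on the minus strand for Cox6a1 and chr17:56717667-56717746 on the plus strand for Ndufa11. The core began 42, 50, 162 and 60 bases before the start of Atp5g2, Atp5k, Cox6a1 and Ndufa11, in that order. Levels of these 4 genes are given with their complexes.

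PLT-HSC libraries held 29017378 to 32437607 gene counts, PEM-HSC libraries 22913695 to 28013676 and MUL-HSC libraries 16371921 to 41367057, and levels are given as CPM, a gene's share of all gene counts of its library, multiplied by 1000000. The floor of 3 counts was 0.183 CPM in the shallowest library, and it covers counting error only, since reads carry no molecular identifiers. All 8 HSC markers looked at, Kit and Procr among them, were detected, and their sum was 2700 to 3711 CPM in PLT-HSC libraries, 2579 to 3121 CPM in PEM-HSC libraries and 1990 to 2776 CPM in MUL-HSC libraries. Markers of other cells were present in part. Of 6 T and NK cell markers Cd3d, Cd3e and Cd3g were at 0 in all 13 libraries, while Nkg7, Klrb1c and Lck were not, and the list summed to 176 to 405 CPM in PLT-HSC, 113 to 387 CPM in PEM-HSC and 157 to 250 CPM in MUL-HSC. Of 7 B and plasma cell markers 2 were at 0 throughout, Pax5 among them, and the sum was 93.5 to 157 CPM in PLT-HSC, 101 to 185 CPM in PEM-HSC and 105 to 168 CPM in MUL-HSC. Of 6 endothelial markers Cdh5 and Lyve1 were at 0, with sums of 111 to 193 CPM in PLT-HSC, 60.2 to 165 CPM in PEM-HSC and 105 to 224 CPM in MUL-HSC. Of 8 erythroid markers the 3 haemoglobin genes were at 0, with sums of 35.7 to 105 CPM in PLT-HSC, 16.6 to 91.0 CPM in PEM-HSC and 16.6 to 43.5 CPM in MUL-HSC. Of 9 neutrophil markers 1, Ltf, was at 0, with sums of 188 to 725 CPM in PLT-HSC, 236 to 684 CPM in PEM-HSC and 278 to 383 CPM in MUL-HSC. The 8 megakaryocyte and platelet markers summed to 658 to 996 CPM in PLT-HSC, 555 to 1224 CPM in PEM-HSC and 700 to 1022 CPM in MUL-HSC. Macrophage markers, 9 of 10 of them in the table and none at 0 throughout, summed to 73.5 to 220 CPM in PLT-HSC. They summed to 75.3 to 342 CPM in PEM-HSC, and both ranges lay above the 28.3 to 61.9 CPM of MUL-HSC. All 7 tested ones had a positive log2 fold change in PEM-HSC against MUL-HSC (median 2.49), and 4 of 7 in PLT-HSC against MUL-HSC (0.02). None had an adjusted p under 0.05 in edgeR. Csf1r had 1 count in 1 PEM-HSC library and 0 elsewhere. The sum of 20 mitosis genes was 105 to 1483 CPM in PLT-HSC libraries, 252 to 2189 CPM in PEM-HSC libraries and 1121, 1401, 265 and 905 CPM in the MUL-HSC libraries. Their log2 fold changes were negative for 17 in PLT-HSC against MUL-HSC (median −0.87) and for 18 in PLT-HSC against PEM-HSC (−0.60). In PEM-HSC against MUL-HSC 9 were negative (0.03). None of the 20 had an adjusted p under 0.05 in edgeR. The part of these markers in the results on oxidative phosphorylation was not tested.

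Transcripts of the respiratory chain and ATP synthase were abundant and similar in the 3 kinds of HSC. Summed over the 84 genes they made up 2.10% of gene counts on average. The sum was 17562, 21934 and 21074 CPM in PLT-HSC, had a lowest value of 18229, a median of 20980 and a highest value of 21915 CPM in PEM-HSC, and was 24570, 23870, 21643 and 19018 CPM in MUL-HSC. The groups overlapped: the lowest MUL-HSC library lay under 2 of the 3 PLT-HSC libraries, and the highest library of all exceeded the lowest 1.40-fold. In such 100-cell samples, a smaller number of cells of a type and less RNA per cell cannot be told apart.

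By complex, the order of the group means was PLT-HSC, PEM-HSC, MUL-HSC from low to high in complexes I, II, III and V, though the libraries of any pair of groups overlapped. In PLT-HSC complex I summed to 7734 ± 995 CPM, in PEM-HSC to 7851 ± 948 CPM and in MUL-HSC to 8579 ± 1130 CPM (SD, n = 3, 6 and 4). Complex II summed to 1658 ± 313, 1766 ± 180 and 1904 ± 349 CPM in the same order of groups, and complex III to 2307 ± 84.3, 2407 ± 152 and 2548 ± 169 CPM. Most complex III genes did not share the lower PLT-HSC sum relative to PEM-HSC: 6 of 8 had a positive log2 fold change against PEM-HSC. Negative were Uqcrc1, whose mean was 766 (PLT-HSC) against 972 CPM (PEM-HSC), and Uqcrfs1, at 256 against 296 CPM. In PLT-HSC against MUL-HSC, 6 of the 8 were negative. In PLT-HSC complex IV summed to 2838 ± 426 CPM, in PEM-HSC to 2552 ± 372 CPM and in MUL-HSC to 2893 ± 404 CPM, and complex V to 5653 ± 586, 5882 ± 378 and 6350 ± 584 CPM in the same order. The plot of sums by complex shows this overlap, which was narrowest for complex III between PLT-HSC and MUL-HSC. Of all member counts, 38.4% fell to complex I, 8.51% to complex II, 11.6% to complex III, 13% to complex IV and 28.5% to complex V.

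**Figure D1:**
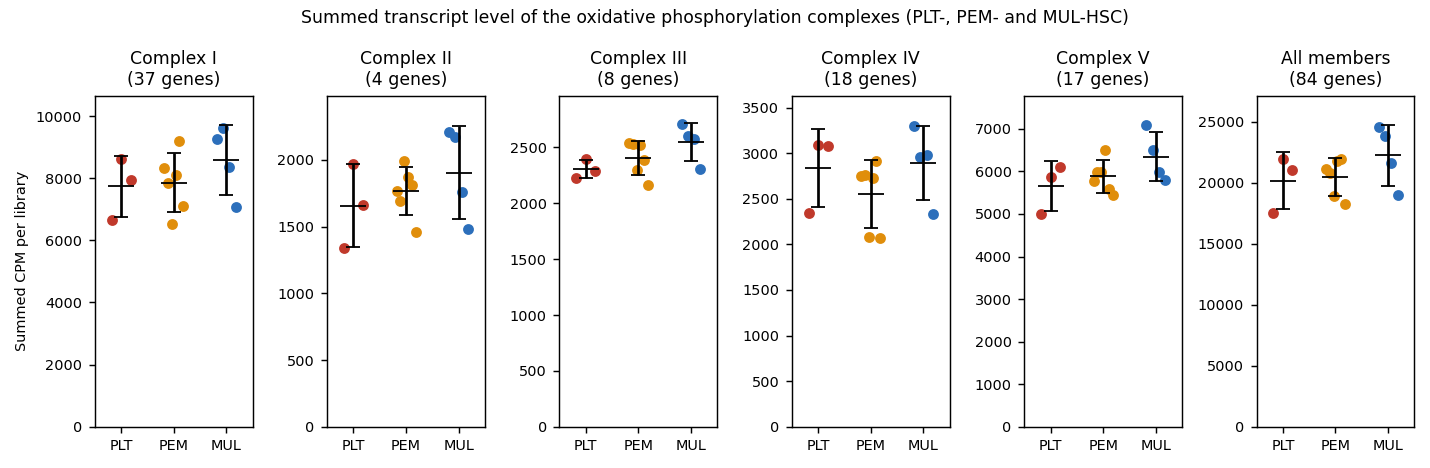
Summed CPM per library of the genes of each complex and of all 84 genes (vertical axes, from 0), by group (PLT, PEM and MUL for PLT-HSC, PEM-HSC and MUL-HSC; horizontal axes). Points are libraries, and bars are mean ± SD; the groups overlap in every panel, and the sum of all members runs from 17562 to 24570 CPM.

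Of the 84 genes, 78 passed the filter on low counts and were tested: 35 of complex I, 4 of complex II, 8 of complex III, 14 of complex IV and 17 of complex V. Ndufa4l2, Cox6a2, Cox7b2 and Cox8c had no count in any of the 13 libraries, and Cox8b had counts in the third PEM-HSC library only (7 counts). Ndufs5, a complex I subunit of the intermembrane space, had at most 5 counts, in 2 libraries; 41.2% of its 50-base windows also occur in 1 other annotated gene, and the cause of its near absence was not tested. Reads may likewise have been lost or shared for 9 tested genes of which at least 30% of windows occur elsewhere: Ndufa12, Ndufb4, Ndufs3, Uqcrb, Cox7c, Atp5g1, Atp5g2, Atp5h and Atp5l. Their levels are uncertain to that extent, while 47 members shared no window with another gene.

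Per kilobase of transcript, the complexes had similar medians, while single members ranged from 1.69 CPM per kilobase (Cox7a1) to 1019. The median over tested members of the mean CPM per kilobase was 254 for complex I, 298 for complex II, 349 for complex III, 215 for complex IV and 322 for complex V. Of the 78 tested members, 65 exceeded 100 CPM per kilobase, 16 of these exceeded 500, and 13 did not exceed 100. The highest was Cox4i1, the common form of subunit 4 of cytochrome c oxidase, at 1019 CPM per kilobase, followed by Ndufb8 (886), Atp5j (812), Atp5c1 (798) and Ndufa4 (784). Members also varied little between libraries: the median SD of log2 CPM over the 13 libraries was 0.29 for the 68 members over 100 CPM on average and 0.36 for the 2473 other tested genes over 100 CPM, a difference given as a description. Uqcrc1 and Uqcrc2, the core proteins of complex III, were the steadiest, each with an SD of 0.18, and the isoform genes Cox7a1 (2.14) and Cox4i2 (1.92) varied most.

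No member was called in any of the 3 comparisons by edgeR's quasi-likelihood test at an adjusted p under 0.05. The background was small too: 0.0479% of the 12536 genes tested were called in PLT-HSC against MUL-HSC, 0.00798% in PEM-HSC against MUL-HSC and 0% in PLT-HSC against PEM-HSC. At an unadjusted p under 0.05 there were 2 of 78 members in each comparison, beside 7.37%, 5.93% and 3.73% of all genes in the same order of comparisons. DESeq2, which called 249, 175 and 93 genes, called no member either. The lowest adjusted p of a member was 0.646 in PLT-HSC against MUL-HSC, 0.787 in PEM-HSC against MUL-HSC and 1 in PLT-HSC against PEM-HSC.

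The intervals show how large a difference these libraries leave room for. Among the 68 members over 100 CPM, the 95% interval of the log2 fold change lay within 1 log2 unit of 0 for 66 in PLT-HSC against MUL-HSC and for all 68 in each of the other comparisons. For the other genes over 100 CPM this held for 73.5%, 87.2% and 85.6%. The exceptions in PLT-HSC against MUL-HSC were Ndufa11 and Atp5s, with lower bounds of −1.06 and −1.03. The median SE over the tested members was 0.24, 0.20 and 0.22, against 0.65, 0.56 and 0.61 over all genes tested.

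**Figure D2:**
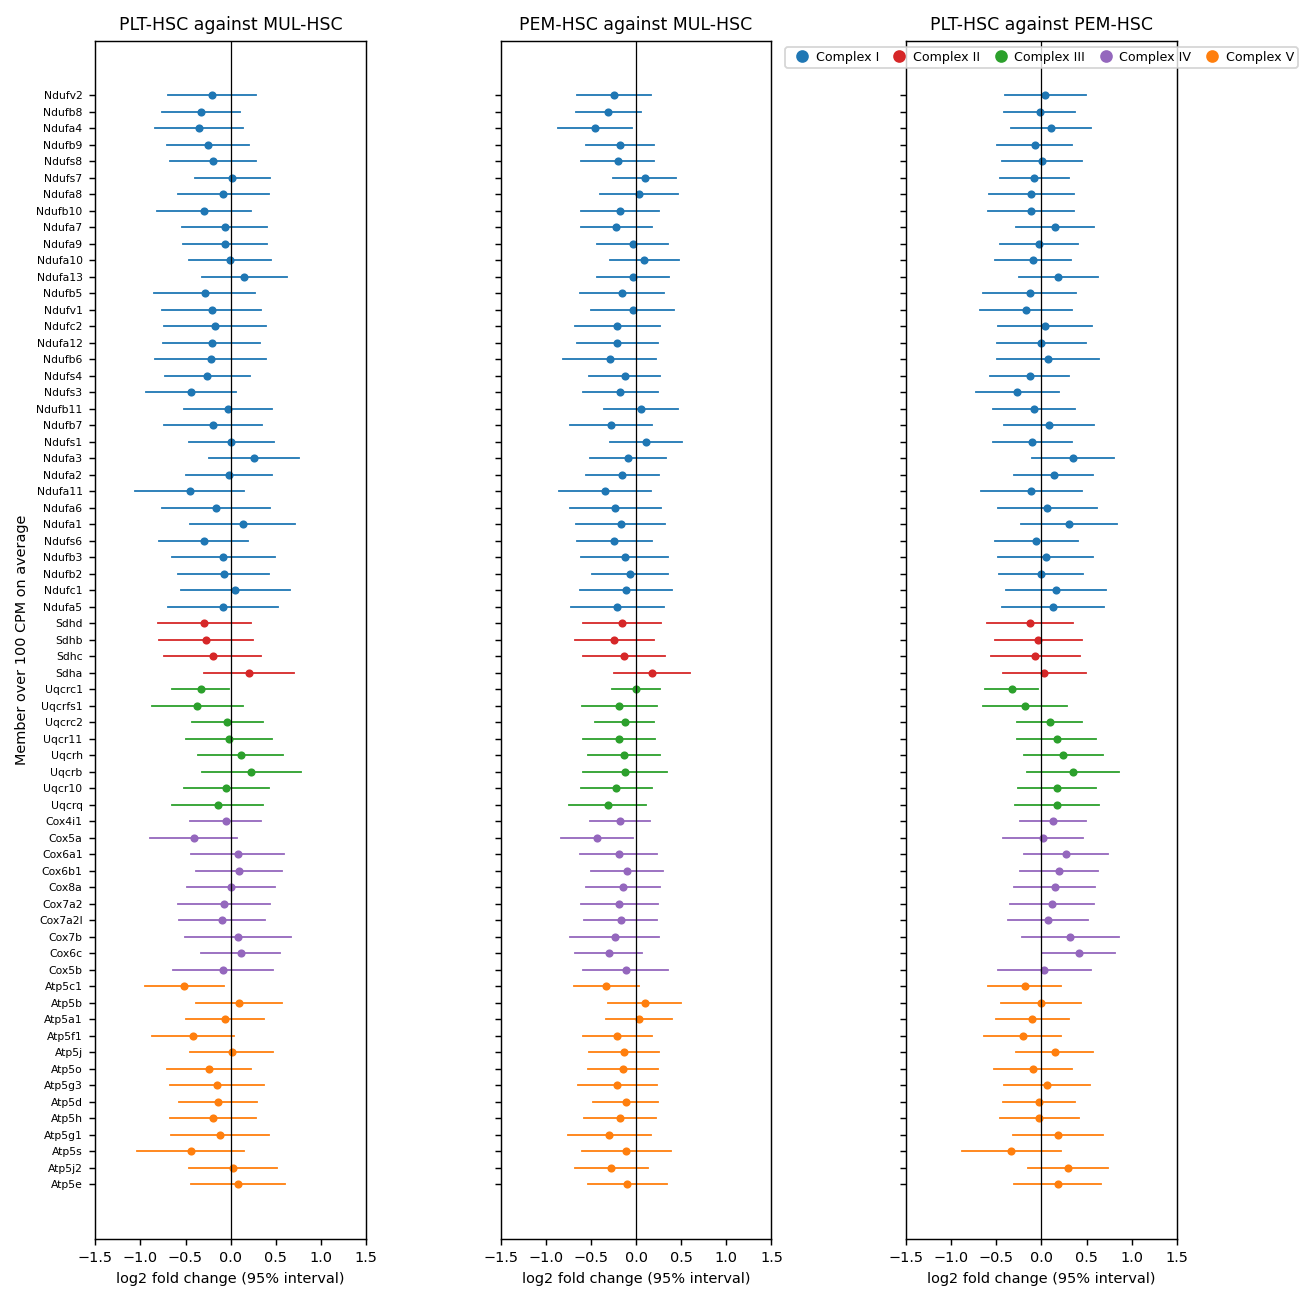
Fitted log2 fold changes (points) with 95% intervals (lines) of 67 of the 68 members over 100 CPM on average, coloured by complex, in PLT-HSC against MUL-HSC, PEM-HSC against MUL-HSC and PLT-HSC against PEM-HSC; positive means higher in the group named before "against". Nearly all intervals cross 0: 2 of the 67 drawn exclude it in each panel, and none was called after adjustment.

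In PLT-HSC against MUL-HSC the members lay slightly to the negative side. The log2 fold change was negative for 52 of 78 members and positive for 26, with a median of −0.08, beside 47.5% negative, 52.4% positive and a median of 0.04 over all genes tested. The 2473 other genes over 100 CPM had a median of −0.09, close to the −0.08 of the 68 members of that abundance, so the median shift was not larger than that of other abundant genes. Of these 68 members 49 were negative, beside 60.3% of the other genes over 100 CPM. By complex the median was −0.12 for complex I (27 of 35 negative), −0.24 for complex II (3 of 4), −0.04 for complex III (6 of 8), 0.04 for complex IV (6 of 14) and −0.12 for complex V (10 of 17). Without both MUL-HSC libraries 1 and 2 the median over members was 0.09, with 21 negative.

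In PEM-HSC against MUL-HSC more members were negative, 64 of 78, and 14 positive, with a median of −0.16. Over all genes tested 49.3% were negative and 50.7% positive, with a median of 0.01. The other genes over 100 CPM had a median of −0.05, with 58.6% negative. Among the 68 members over 100 CPM the median was −0.17, with 59 negative. All 8 genes of complex III were negative (median −0.16), as were 28 of 35 in complex I (−0.17), 3 of 4 in complex II (−0.15), 11 of 14 in complex IV (−0.18) and 14 of 17 in complex V (−0.14). The pooled SD of the library medians within the groups was 0.22, larger than the shift. That SD describes single libraries and is not the error of a difference between groups. The direction rested on the first and second MUL-HSC libraries: without both of them the median was 0.05, with 31 of 78 negative.

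In PLT-HSC against PEM-HSC the members were spread to both sides, with 43 positive, 35 negative and a median of 0.03, beside 51.5% positive, 48.5% negative and a median of 0.02 over all genes tested. Among members over 100 CPM, 30 of 68 were negative, with a median of 0.03. The other genes over 100 CPM lay to the other side, with 56.0% negative and a median of −0.04. Complex IV (12 of 14 positive, median 0.12) and complex III (6 of 8 positive, 0.17) lay to the positive side, and complexes I (−0.01), II (−0.05) and V (−0.02) near 0. The overall sign rested on single libraries, with a median of −0.08 without the second PLT-HSC library and −0.00 without the third PEM-HSC library. PLT-HSC and PEM-HSC share the MUL-HSC libraries in the 2 comparisons above, so those shifts are not independent of each other.

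Complex I, the NADH dehydrogenase, is led here by Ndufb8, an accessory subunit of its membrane arm. Ndufb8 had 445, 550 and 678 CPM in PLT-HSC, a lowest, median and highest value of 475, 550 and 713 CPM in PEM-HSC libraries and 714, 812, 674 and 552 CPM in the MUL-HSC libraries. All groups overlapped, and the log2 fold change was −0.33 (SE 0.20, adjusted p = 0.841) for PLT-HSC against MUL-HSC and −0.31 (SE 0.17, adjusted p = 0.979) for PEM-HSC against MUL-HSC. Ndufa3, an accessory subunit, was the complex I gene with the smallest p in PLT-HSC against PEM-HSC, with 217, 157 and 157 CPM in PLT-HSC against 108 to 168 CPM (median 138) in PEM-HSC and 114 to 170 CPM in MUL-HSC. The first PLT-HSC library stood above all others, and the log2 fold change of 0.35 (SE 0.22) had an adjusted p of 1. Ndufa11, whose promoter stretch is shown above, had 95.5, 163 and 113 CPM in PLT-HSC, 101 to 184 CPM (median 142) in PEM-HSC and 200, 191, 160 and 131 CPM in the MUL-HSC libraries, with overlapping groups and a log2 fold change of −0.46 (SE 0.29, adjusted p = 0.853) in PLT-HSC against MUL-HSC.

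Complex II, succinate dehydrogenase, also works in the citric acid cycle and has no subunit encoded by mitochondrial DNA. Its flavoprotein Sdha, which oxidises succinate, had 309, 168 and 315 CPM in PLT-HSC, 219 to 363 CPM (median 229) in PEM-HSC and 166, 252, 240 and 238 CPM in the MUL-HSC libraries. The other 3 subunits did not share Sdha's order of libraries. The iron-sulphur protein Sdhb had 380, 716 and 513 CPM in PLT-HSC, 427 to 627 CPM (median 591) in PEM-HSC and 789, 679, 650 and 488 CPM in the MUL-HSC libraries. The membrane anchor Sdhc had 203, 278 and 245 CPM in PLT-HSC, 195 to 328 CPM (median 254) in PEM-HSC and 375, 298, 243 and 187 CPM in the MUL-HSC libraries. The other anchor, Sdhd, had 452, 807 and 590 CPM in PLT-HSC, 559 to 774 CPM (median 700) in PEM-HSC and 877, 942, 626 and 568 CPM in the MUL-HSC libraries. In the second PLT-HSC library Sdhb, Sdhc and Sdhd were at their PLT-HSC highest while Sdha was at its lowest, and in the first MUL-HSC library Sdhb and Sdhc were at their MUL-HSC highest while Sdha was again at its lowest. In PLT-HSC against MUL-HSC the log2 fold change was 0.21 (SE 0.24) for Sdha, −0.28 (SE 0.25) for Sdhb, −0.20 (SE 0.25) for Sdhc and −0.29 (SE 0.24) for Sdhd, and none was called by edgeR (adjusted p = 0.96 or more).

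In complex III, the cytochrome bc1 complex, Uqcrc1 gave the clearest separation of groups among all members. Uqcrc1, a core protein that does not carry electrons itself, had 771, 734 and 792 CPM in PLT-HSC, 865 to 1144 CPM (median 955) in PEM-HSC and 948, 942, 932 and 1014 CPM in the MUL-HSC libraries. All 3 PLT-HSC libraries lay below all 10 other libraries. The log2 fold change was −0.33 (SE 0.15, 95% interval −0.65 to −0.02, edgeR adjusted p = 0.647) in PLT-HSC against MUL-HSC, −0.33 (SE 0.14, interval −0.62 to −0.04, adjusted p = 1) in PLT-HSC against PEM-HSC and −0.00 (SE 0.12) in PEM-HSC against MUL-HSC. It therefore did not pass the test across all genes in either comparison. Uqcrc2, the partner core protein, had 311, 315 and 249 CPM in PLT-HSC, 245 to 304 CPM (median 288) in PEM-HSC and 288, 316, 323 and 270 CPM in the MUL-HSC libraries, and its groups overlapped (−0.04, SE 0.18, in PLT-HSC against MUL-HSC). The small subunit Uqcr11 had 229, 270 and 258 CPM in PLT-HSC, 164 to 309 CPM (median 216) in PEM-HSC and 275, 230, 296 and 219 CPM in the MUL-HSC libraries, also with overlap.

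In complex IV, cytochrome c oxidase, the nuclear subunits surround the catalytic core encoded by mitochondrial DNA. Cox4i1 had 611, 830 and 900 CPM in PLT-HSC, 562 to 818 CPM (median 742) in PEM-HSC and 841, 809, 857 and 704 CPM in the MUL-HSC libraries, with overlapping groups and log2 fold changes of −0.05 (SE 0.19) for PLT-HSC and −0.18 (SE 0.16) for PEM-HSC against MUL-HSC. Cox5a had 181, 303 and 295 CPM in PLT-HSC, 210 to 301 CPM (median 257) in PEM-HSC and 394, 373, 347 and 254 CPM in the MUL-HSC libraries. For Cox5a 3 of 4 MUL-HSC libraries lay above all others, and the log2 fold change of PEM-HSC against MUL-HSC was −0.43 (SE 0.19, interval −0.83 to −0.03, edgeR adjusted p = 0.814). Ndufa4 behaved alike, with 389, 487 and 488 CPM in PLT-HSC, 292 to 510 CPM (median 445) in PEM-HSC and 668, 677, 514 and 432 CPM in the MUL-HSC libraries (−0.45, SE 0.19, interval −0.86 to −0.05, adjusted p = 0.787, in PEM-HSC against MUL-HSC). In both genes the fourth MUL-HSC library lay among the other groups. Over the fits that left out 1 or 2 libraries, the Ndufa4 value ran from −0.57 to −0.13 and the Cox5a value from −0.55 to −0.20, each nearest to 0 without both MUL-HSC libraries 1 and 2.

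Cox6c and Cox7c, small subunits of complex IV, were the members whose PLT-HSC libraries all lay above all PEM-HSC libraries, beside 1.1% of all genes tested with such a separation. Cox6c had 185, 169 and 192 CPM in PLT-HSC and 112 to 165 CPM (median 138) in PEM-HSC, with 208, 166, 151 and 142 CPM in MUL-HSC. The PLT-HSC against PEM-HSC log2 fold change of Cox6c was 0.41 (SE 0.19, interval 0.01 to 0.82, edgeR adjusted p = 1). Cox7c had 72.7, 85.0 and 78.9 CPM in PLT-HSC and 28.5 to 69.6 CPM (median 61.8) in PEM-HSC, with 102, 71.7, 69.8 and 49.4 CPM in MUL-HSC, and 53.0% of its windows occur in other genes. For Cox7c the PLT-HSC against PEM-HSC log2 fold change was 0.51 (SE 0.32). Cox6a1, whose promoter stretch is shown above, had 227, 330 and 331 CPM in PLT-HSC, 170 to 312 CPM (median 251) in PEM-HSC and 336, 292, 266 and 217 CPM in the MUL-HSC libraries, with overlap.

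In complex V, the ATP synthase, Atp5c1 had the smallest p of any member in PLT-HSC against MUL-HSC. Atp5c1 encodes the gamma subunit, the central shaft of the motor. It had 710, 872 and 740 CPM in PLT-HSC, 734 to 1189 CPM (median 889) in PEM-HSC and 1208, 1262, 1012 and 924 CPM in the MUL-HSC libraries. PLT-HSC and MUL-HSC libraries did not overlap, while PEM-HSC libraries spanned both. The log2 fold change was −0.51 (SE 0.21, interval −0.95 to −0.08, edgeR adjusted p = 0.646) in PLT-HSC against MUL-HSC and −0.33 (SE 0.17, adjusted p = 0.936) in PEM-HSC against MUL-HSC. Atp5f1, subunit b of the peripheral stalk, had 413, 692 and 601 CPM in PLT-HSC, 535 to 736 CPM (median 679) in PEM-HSC and 864, 872, 631 and 656 CPM in the MUL-HSC libraries, with overlap and a log2 fold change of −0.42 (SE 0.22, adjusted p = 0.741) in PLT-HSC against MUL-HSC. Atp5j, coupling factor 6 of the same stalk, differed less, with 548, 733 and 604 CPM in PLT-HSC, 481 to 702 CPM (median 558) in PEM-HSC and 712, 663, 663 and 447 CPM in the MUL-HSC libraries (0.01, SE 0.22, in PLT-HSC against MUL-HSC). Atp5k, the small e subunit whose promoter stretch is shown above, had 56.6, 39.9 and 42.3 CPM in PLT-HSC, 28.5 to 52.9 CPM (median 35.0) in PEM-HSC and 44.5, 41.5, 30.2 and 28.2 CPM in the MUL-HSC libraries, again with overlap.

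Members without overlap between groups were few in all. PLT-HSC lay wholly below MUL-HSC in 3 of 78 members, Atp5c1, Atp5s and Uqcrc1, beside 3.04% of all genes tested, and wholly above it in none, beside 3.75%. Atp5s, also called factor B, had 107, 118 and 135 CPM in PLT-HSC and 158, 154, 190 and 145 CPM in MUL-HSC, with 94.1 to 221 CPM in PEM-HSC. No member separated PEM-HSC from MUL-HSC, beside 0.63% of all genes lower and 0.862% higher. PLT-HSC lay wholly below PEM-HSC in Uqcrc1 alone, beside 1.06%. Cox7c and Atp5s are named here after their values were seen. These shares of members are close to those of all genes and say nothing particular about oxidative phosphorylation.

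Tissue forms of complex IV subunits were scarce, and the common form led in every set. Per kilobase, Cox4i1 exceeded Cox4i2, the form known from lung and low oxygen, 166-fold, Cox7a2 exceeded the muscle form Cox7a1 154-fold and Cox6b1 exceeded the testis form Cox6b2 15.3-fold. Cox6a2, the heart and skeletal muscle form, Cox8c and Ndufa4l2, which is known to be induced by low oxygen, were at 0 throughout. Cox4i2 had 2.38, 4.17 and 3.73 CPM in PLT-HSC, 0.388 to 10.1 CPM (median 6.06) in PEM-HSC and 5.81, 0, 3.42 and 4.83 CPM in the MUL-HSC libraries, so it was present in 12 of 13 libraries at low level and without separation of groups. Cox6b2 had 4.03, 15.3 and 21.3 CPM in PLT-HSC, 4.11 to 24.9 CPM (median 12.2) in PEM-HSC and 12.2, 11.4, 11.3 and 4.25 CPM in the MUL-HSC libraries. Cox7a2l, known for joining complexes III and IV, had 165, 159 and 183 CPM in PLT-HSC, 135 to 231 CPM (median 143) in PEM-HSC and 185, 190, 183 and 156 CPM in the MUL-HSC libraries. Cox8a had 207, 323 and 266 CPM in PLT-HSC, 188 to 305 CPM (median 248) in PEM-HSC and 285, 277, 281 and 216 CPM in the MUL-HSC libraries, again with overlap. Cox6b1 had 241, 305 and 308 CPM in PLT-HSC, 197 to 307 CPM (median 253) in PEM-HSC and 316, 271, 261 and 210 CPM in the MUL-HSC libraries. Cox7a2 had 173, 172 and 178 CPM in PLT-HSC, 107 to 201 CPM (median 166) in PEM-HSC and 212, 185, 186 and 145 CPM in the MUL-HSC libraries. Cox7a1 reached at most 2.56 CPM, in the third PEM-HSC library, and was at 0 in 6 of 13 libraries. Beyond their low level, none of these isoform genes separated the groups.

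The c ring of ATP synthase is encoded by a set of 3 genes, Atp5g1, Atp5g2 and Atp5g3, whose mature proteins are the same. Atp5g3 led at 1.93 times the level of Atp5g1 per kilobase and 26.4 times that of Atp5g2. Atp5g3 had 266, 460 and 434 CPM in PLT-HSC, 312 to 496 CPM (median 364) in PEM-HSC and 572, 385, 408 and 335 CPM in the MUL-HSC libraries. Atp5g1 had 118, 212 and 191 CPM in PLT-HSC, 128 to 186 CPM (median 152) in PEM-HSC and 201, 205, 211 and 134 CPM in the MUL-HSC libraries. Atp5g2, whose promoter stretch is shown above, had 10.4, 17.9 and 17.7 CPM in PLT-HSC, 11.4 to 19.5 CPM (median 16.0) in PEM-HSC and 18.4, 11.3, 12.9 and 13.6 CPM in the MUL-HSC libraries. The groups overlapped in all 3 genes. Of the windows of Atp5g1 66.0%, and of Atp5g2 87.4%, occur in other annotated genes, so these ratios are uncertain.

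**Figure D3:**
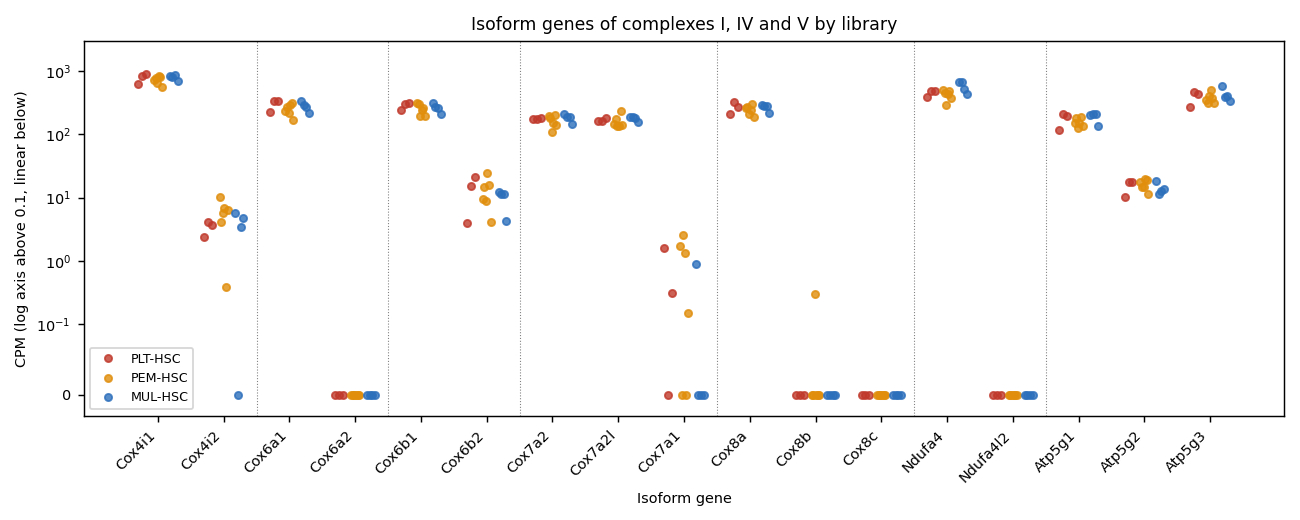
CPM per library (vertical axis, logarithmic above 0.1 and linear below) of the isoform genes of complexes I, IV and V, with PLT-HSC, PEM-HSC and MUL-HSC from left to right within each gene and a point per library. The common forms lie at 100 CPM or more, Cox4i2 between 0 and 10.1 CPM, and Cox6a2, Cox8c and Ndufa4l2 at 0 in all 13 libraries.

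In several libraries most members shifted together, also within groups. As a median over the 78 tested members, log2 CPM differed from the mean of the 13 libraries by −0.21, 0.27 and −0.07 in the 3 PLT-HSC libraries. In PEM-HSC this median ran from −0.34 in the third library to 0.17 in the fifth, and in MUL-HSC it was 0.31, 0.21, 0.09 and −0.27. Libraries of the same group thus lay on both sides: 73 of 78 members were above their mean in the first MUL-HSC library and 10 in the fourth, and 67 were above it in the second PLT-HSC library and 24 in the first. In 6 of 13 libraries the medians of all 5 complexes had the same sign, with complexes I to V at 0.28, 0.46, 0.27, 0.39 and 0.32 in the first MUL-HSC library and at −0.29, −0.31, −0.19, −0.32 and −0.17 in the fourth. Elsewhere the complexes differed: in the third PEM-HSC library complex II was at 0.20, against −0.42, −0.43, −0.36 and −0.32 for complexes I, III, IV and V, and in the third PLT-HSC library complex IV was at 0.11 and complex II at −0.25. Over all genes tested the median stayed between 0.00 and 0.11 in every library.

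**Figure D4:**
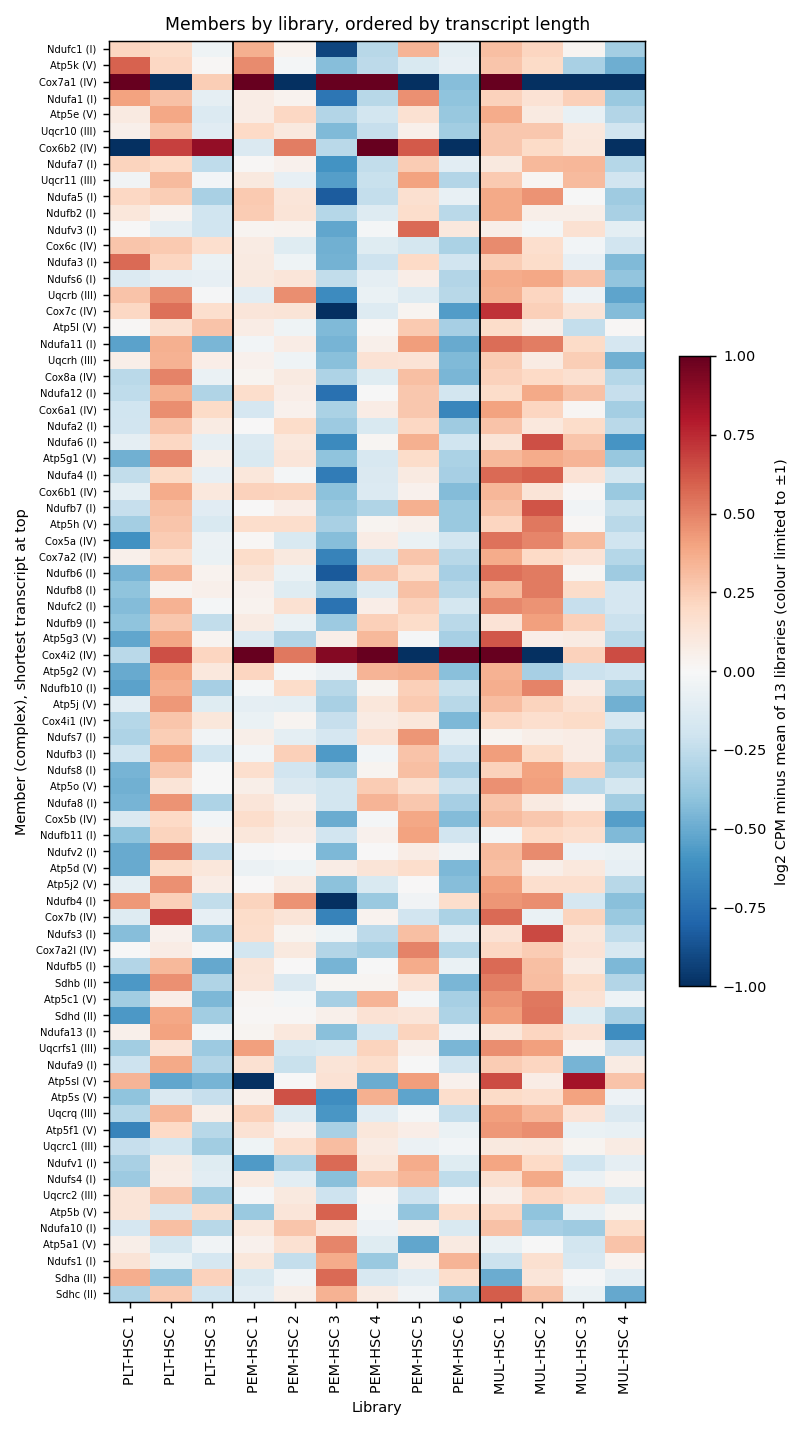
Log2 CPM of 77 of the 78 tested members (rows, shortest transcript at the top, complex in brackets) minus its mean over the 13 libraries (columns, grouped as PLT-HSC, PEM-HSC and MUL-HSC), with red for above and blue for below and the colour limited to 1 log2 unit. Some columns are mostly of a single colour, such as the first MUL-HSC library, where 73 of all 78 members are above their mean, and others are mixed, such as the fourth PEM-HSC library with 38 above and 40 below; in the third PEM-HSC library short transcripts are low and several long ones high.

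For short transcripts, these shifts had the same sign as those of other genes of the same length. Members are short, 26 of the 78 under 600 bases and 27 from 600 to under 1000 bases, against 12 from 1000 to under 1500 bases and 13 of 1500 bases or more. These classes were chosen after the values were seen. In the third PEM-HSC library the median deviation was −0.45 for the 26 shortest members and −0.44 for 333 other tested genes under 600 bases. In the fourth MUL-HSC library the values were −0.34 and −0.32, and in the second PLT-HSC library 0.28 and 0.24. The members stood further from 0 than the other short genes in the sixth PEM-HSC library (−0.31 against −0.18) and the first MUL-HSC library (0.28 against 0.16). The sign was the same for both sets in 13 of 13 libraries, and the values differed by at most 0.14. The part of transcript length in the shifts of the members was not tested. The members from 1000 to under 1500 bases stood further out than the other genes of their length in some libraries, at 0.43 against 0.17 in the first MUL-HSC library and −0.23 against 0.11 in the third PEM-HSC library.

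The long members shared the sign of the members under 600 bases in 8 of 13 libraries, the first and second MUL-HSC libraries among them (0.16 in each). They shared the sign of the other long genes in only 3 of 13 libraries. Against those genes they stood at −0.17 against 0.20 in the first PLT-HSC library and at −0.12 against 0.26 in the third. The other long genes were not matched for abundance, since 1674 of the 9783 exceeded 100 CPM on average. Medians per library were not computed for these abundant ones alone, and their values between groups are given below. In the third PEM-HSC library the 13 members of 1500 bases or more had a median of 0.35, against 0.16 for the 9783 other genes of that length. Atp5b, the catalytic beta subunit of ATP synthase, had 1237 CPM there, the highest of its 13 libraries, against 607 to 933 CPM in the other PEM-HSC libraries. Atp5a1, the alpha subunit, had 1112 CPM, also its highest. In the same library the short Cox7c had 28.5 CPM, its lowest. Atp5b and Atp5a1 were picked after their values were seen. Within the third PEM-HSC library the Spearman correlation of deviation with length over the 78 members was 0.50, in the fourth MUL-HSC library 0.46 and in the second PLT-HSC library −0.23, as descriptions over genes that share a library.

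**Figure D5:**
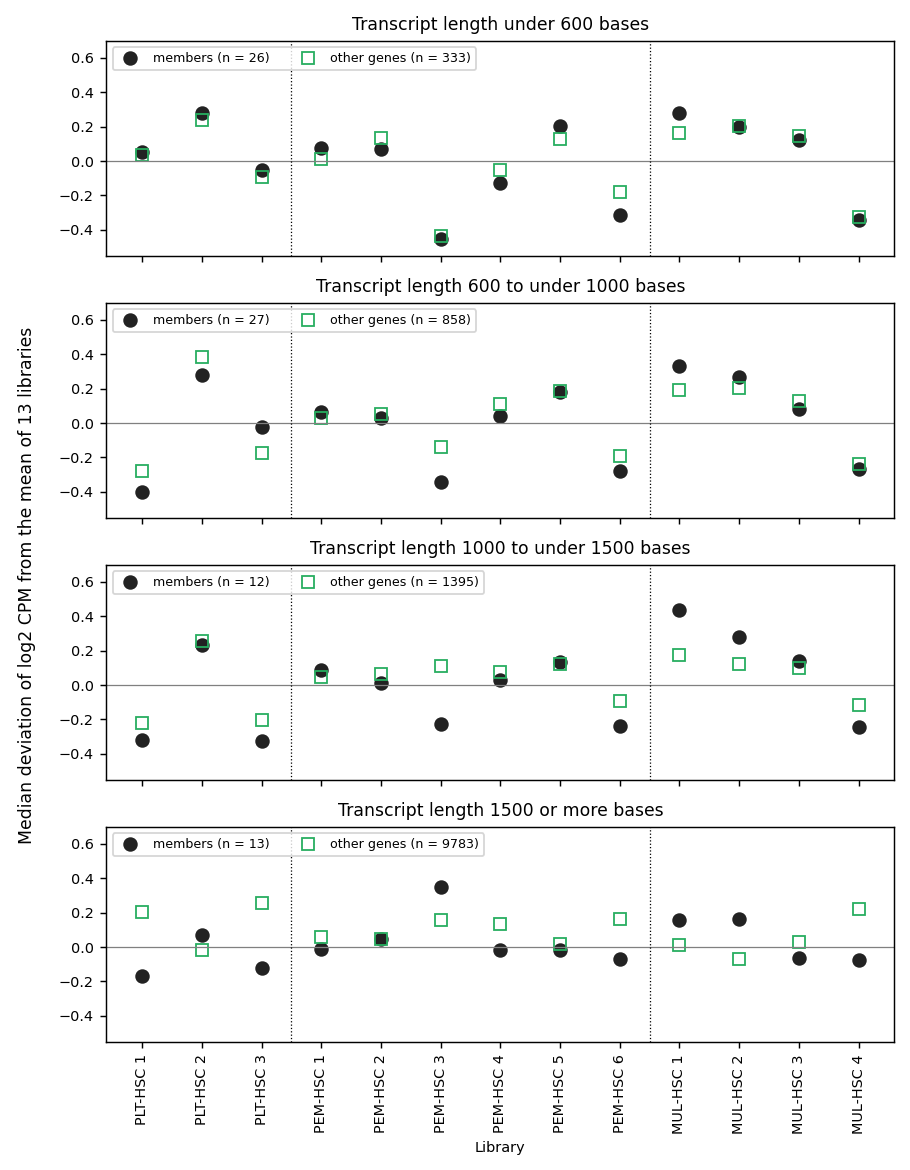
Median deviation of log2 CPM from the mean of the 13 libraries (vertical axes) for members (filled circles) and other tested genes (open squares) of 4 classes of transcript length (panels), by library (horizontal axis, PLT-HSC, PEM-HSC and MUL-HSC from left to right). Under 600 bases members and other genes have the same sign in every library, close in the third PEM-HSC library (−0.45 and −0.44) and less so in the sixth (−0.31 and −0.18). At 1500 bases or more they have the same sign in only 3 of 13 libraries, and part in others such as the first PLT-HSC library (−0.17 and 0.20). The other genes are not matched to the members for abundance.

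Between groups, the members differed in part from other genes of their length. In PLT-HSC against PEM-HSC the members under 600 bases had a median log2 fold change of 0.17, beside 0.10 for other genes of that length. The members lay below the 0.24 of those other genes that exceeded 100 CPM on average. Members of 1500 bases or more had −0.09, beside 0.04 for other genes and −0.03 for those over 100 CPM. In PEM-HSC against MUL-HSC the members under 600 bases had −0.16, beside −0.15 for other genes and −0.13 for those over 100 CPM. Members from 600 to under 1000 bases had −0.18, beside −0.08 and −0.12 in that order. Members from 1000 to under 1500 bases had −0.17, beside −0.03 and −0.07. In PLT-HSC against MUL-HSC the classes from short to long had 0.03, −0.14, −0.29 and −0.06, beside −0.08, −0.09, −0.11 and 0.10 for other genes of each length and 0.09, −0.11, −0.18 and −0.06 for those of them over 100 CPM on average. With each library's length trend as a term in the fit, an alternative added after seeing the data, the median over members was 0.03 in PLT-HSC against MUL-HSC, −0.12 in PEM-HSC against MUL-HSC and 0.12 in PLT-HSC against PEM-HSC, and no member was called.

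Genes that work beside the complexes gave no call either, with 0 called in every list and comparison. Among 18 tested electron carriers and other subunits, 6 were positive and 12 negative in PLT-HSC against MUL-HSC (median −0.15), 7 and 11 in PEM-HSC against MUL-HSC (−0.01) and 4 and 14 in PLT-HSC against PEM-HSC (−0.10). Etfa, a subunit of the flavoprotein that carries electrons from fatty acid oxidation, had 247, 261 and 288 CPM in PLT-HSC, 298 to 372 CPM (median 331) in PEM-HSC and 418, 522, 303 and 376 CPM in the MUL-HSC libraries. PLT-HSC lay below both other groups in Etfa without overlap. Of all genes tested, 3.04% had PLT-HSC wholly below MUL-HSC and 1.06% wholly below PEM-HSC. The log2 fold change of Etfa in PLT-HSC against MUL-HSC was −0.63 (SE 0.20, adjusted p = 0.491 in edgeR). Its partner Etfb overlapped, with 420, 607 and 710 CPM in PLT-HSC, 532 to 813 CPM (median 669) in PEM-HSC and 777, 706, 614 and 519 CPM in the MUL-HSC libraries.

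Of 43 tested assembly factors, 18 were positive and 25 negative in PLT-HSC against MUL-HSC (median −0.04), 15 and 28 in PEM-HSC against MUL-HSC (−0.11) and 21 and 22 in PLT-HSC against PEM-HSC (−0.01). The most abundant of them, Coa3 and Cox14, both complex IV assembly factors, differed between groups by less than their spread. The PLT-HSC mean of Coa3 was 280 ± 48.4 CPM, the PEM-HSC mean 317 ± 53.8 CPM and the MUL-HSC mean 320 ± 82.0 CPM (SD, n = 3, 6 and 4), and the means of Cox14 were 261 ± 51.5, 244 ± 44.3 and 266 ± 37.0 CPM in that order. The 24 citric acid cycle genes were even, with 12 positive and 12 negative in both comparisons with MUL-HSC (medians 0.03 and −0.01) and 11 and 13 in PLT-HSC against PEM-HSC (−0.04). Mdh2, which makes oxaloacetate from malate, had 659, 835 and 778 CPM in PLT-HSC, 867 to 1067 CPM (median 921) in PEM-HSC and 1081, 967, 866 and 964 CPM in the MUL-HSC libraries. As with Uqcrc1, all PLT-HSC libraries of Mdh2 lay below all others. Such a separation held for 3.04% of all genes tested against MUL-HSC and for 1.06% against PEM-HSC. The log2 fold change of Mdh2 in PLT-HSC against MUL-HSC was −0.36 (SE 0.16, adjusted p = 0.658 in edgeR). Idh3g, a subunit of isocitrate dehydrogenase, had a PLT-HSC mean of 540 ± 89.2 CPM, a PEM-HSC mean of 562 ± 86.5 CPM and a MUL-HSC mean of 550 ± 116 CPM. The 24 import genes had 7 positive and 17 negative in PLT-HSC against MUL-HSC (−0.15), 9 and 15 in PEM-HSC against MUL-HSC (−0.13) and 10 and 14 in PLT-HSC against PEM-HSC (−0.01). Hspa9, the chaperone of the import motor, had means of 251 ± 63.5 CPM (PLT-HSC), 235 ± 18.9 CPM (PEM-HSC) and 232 ± 64.6 CPM (MUL-HSC). Timm17b, of the inner membrane translocase, varied more, with means of 195 ± 102 CPM (PLT-HSC), 231 ± 114 CPM (PEM-HSC) and 208 ± 58.5 CPM (MUL-HSC).

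Mitochondrial carriers, among them those of ADP, ATP and phosphate, were negative in 10 of 11 in PLT-HSC against MUL-HSC (median −0.29), 9 of 11 in PEM-HSC against MUL-HSC (−0.10) and 8 of 11 in PLT-HSC against PEM-HSC (−0.10). Slc25a5, the ADP/ATP carrier, was the most abundant, with 1342, 1660 and 1534 CPM in PLT-HSC, 1497 to 1816 CPM (median 1632) in PEM-HSC and 2586, 2260, 1839 and 1831 CPM in the MUL-HSC libraries. All MUL-HSC libraries of Slc25a5 lay above all others, though the highest PEM-HSC library came close to the lowest MUL-HSC library. Of all genes tested, 3.04% had PLT-HSC wholly below MUL-HSC and 0.63% had PEM-HSC wholly below MUL-HSC. The log2 fold change of Slc25a5 was −0.50 (SE 0.18, edgeR adjusted p = 0.589) in PLT-HSC and −0.40 (SE 0.15, adjusted p = 0.735) in PEM-HSC against MUL-HSC. The phosphate carrier Slc25a3 overlapped between groups, with 551, 641 and 635 CPM in PLT-HSC, 536 to 722 CPM (median 622) in PEM-HSC and 672, 779, 642 and 536 CPM in the MUL-HSC libraries.

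Among 20 tested regulators and uncoupling genes, 13 were positive and 7 negative in PLT-HSC against MUL-HSC (median 0.20), 8 and 12 in PEM-HSC against MUL-HSC (−0.13) and 14 and 6 in PLT-HSC against PEM-HSC (0.19). The PGC-1 coactivator genes were low: Ppargc1a was not tested, with at most 97 counts in a library, and Ppargc1b averaged 0.57 CPM. Nrf1 averaged 26.4 CPM, Gabpa 59.7 CPM and Esrra, which encodes ERR alpha, 1.37 CPM. Tfam, the factor that packages and transcribes mitochondrial DNA, had 111, 138 and 99.5 CPM in PLT-HSC, 67.5 to 167 CPM (median 123) in PEM-HSC and 235, 172, 127 and 120 CPM in the MUL-HSC libraries, with overlap and log2 fold changes of −0.50 (SE 0.33) for PLT-HSC and −0.53 (SE 0.27) for PEM-HSC against MUL-HSC, not called. Atpif1, the inhibitor of the ATP synthase, had 610, 625 and 657 CPM in PLT-HSC, 351 to 622 CPM (median 527) in PEM-HSC and 639, 597, 586 and 466 CPM in the MUL-HSC libraries. Ucp2, an uncoupling protein abundant in blood cells, had 438, 490 and 579 CPM in PLT-HSC, 266 to 832 CPM (median 484) in PEM-HSC and 624, 432, 547 and 615 CPM in the MUL-HSC libraries, and neither gene was called.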

How the data were processed

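RNA was measured in 13 libraries of 100 sorted HSCs each. Per the labels, cDNA was made with Smart-seq+ and libraries with Nextera XT. The submitters' processing notes name build mm9 and the tools Trimmomatic, FastQC, STAR and featureCounts. Annotation, versions and strand mode are not given in the sources used here. Deposited values are whole read counts by gene symbol, not normalized by the authors. The 92 spike-in rows (0.0191 to 0.0612% of reads) were left out.

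CPM was computed over all gene counts. Counts were tested with edgeR 4.0.16 (R 4.3.3; filterByExpr, TMM, robust quasi-likelihood fit of all 13 libraries with a term per group), with Benjamini-Hochberg adjustment over 12536 genes and a threshold of 0.05. DESeq2 1.42.0 was an alternative. The fit was checked on simulated counts with changes far larger than those of nearly all members and less spread than the median gene has here. That check therefore says nothing about finding differences of the size seen in the members. Deviations used log2 CPM with a prior count of 2. All pairs of libraries within groups differed by more than sampling noise (chi-square per degree of freedom at least 163). Without a known strand mode, reads of overlapping genes cannot be told apart. Transcript lengths and shared 50-base windows came from GENCODE vM21, promoter sequences from RefSeq GRCm38.p6. mm9 coordinates were not used here.

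The members, gene lists and marker lists were chosen with earlier results of these data known. Named members are the 2 with the highest CPM per kilobase in each complex, the 3 with the smallest p in each comparison, complex II and the isoform sets. Other lists give their 2 most abundant genes and regulators. Genes outside this rule were named for their promoters or after their values were seen. Libraries were treated as unpaired. Deviations from the group means of same-numbered libraries had correlations of −0.132 to 0.0482. These cannot settle whether replicate numbers pair libraries, since noise of single genes may hide a shared effect. Some genes are not reported here.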

Additional observations from a re-analysis of the deposited data

Results flagged for a closer look

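Dixon's test for a value far from its group was applied to named members' CPM and to summed CPM by complex and over all members. Of 65 such groups of values with 4 to 10 libraries, 6 stood out. In 2 of these, Cox7a1 and Cox8b, all other libraries of the group were at 0, so that any count stands out, which leaves 4, where chance gives about 1 in 20. In MUL-HSC, the first library was lowest for Sdha at 166 CPM, with the nearest other library at 238 CPM, and highest for Cox7a1 at 0.901 CPM, with the other 3 at 0. The fourth MUL-HSC library was lowest for Cox8a at 216 CPM (nearest 277 CPM), for Atp5g1 at 134 CPM (nearest 201 CPM) and for Cox6b2 at 4.25 CPM (nearest 11.3 CPM). In PEM-HSC, the third library held Cox8b at 0.303 CPM, with the other 5 at 0.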

How the results depend on the processing

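No member was called under any of the 23 alternatives, and the lowest adjusted p of a member over them ran from 0.17 (DESeq2, PLT-HSC against MUL-HSC) to 1. All medians over members stayed within 1 SD of the library medians, but the sign was not stable. With the number of detected genes as a term they were 0.06 in PLT-HSC against MUL-HSC, −0.04 in PEM-HSC against MUL-HSC and 0.08 in PLT-HSC against PEM-HSC. With 1 library left out they ran from −0.22 to −0.01, from −0.26 to −0.07 and from −0.08 to 0.11 in the same order of comparisons, and the cause was not tested. Of 1787 recomputed log2 fold changes of named members 118 changed sign and 45 moved by at least their SE, and of 345 complex medians 33 changed sign and 3 moved by at least 1 SD. The count of all genes called in PLT-HSC against MUL-HSC, 6, became 249 with DESeq2, 11 without the low-count filter, 14 at a mean of at least 10 CPM, 1 with only the compared groups, 1 without both MUL-HSC libraries 1 and 2, 17 with the length trend (added after seeing the data) and 1 to 37 with 1 library left out. In PEM-HSC against MUL-HSC the count of 1 became 175 with DESeq2, 0 with only the compared groups, 0 with detected genes, 2 with the length trend and 0 to 4 with 1 library left out. In PLT-HSC against PEM-HSC the count of 0 (3.73% of genes at an unadjusted p under 0.05) became 93 with DESeq2 and 0 to 2 with 1 library left out. With the replicate number as a block, 2 genes were called in PLT-HSC against MUL-HSC, 0 in PEM-HSC against MUL-HSC and 0 in PLT-HSC against PEM-HSC, and member medians were −0.14, −0.16 and 0.00. No alternative varied the depth.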
